A study of Mus musculus with 2 samples.

Results

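The miR-99/100 family was followed in the adrenal glands of female mice aged 4 days. Its members are the 3 miRNA genes with the GENCODE M21 names Mir99a, Mir99b and Mir100, chosen by name among the 2202 miRNA genes of the deposited tables. All 3 had at least 10 reads in both libraries, the minimum for testing, which 377 of the 2202 genes reached. The series holds 2 libraries of 1 group, biological replicates 1 and 2, with no treatment and no second genotype. The strain, B6CASTF1/J, is a first-generation hybrid of C57BL/6J and CAST/EiJ, and the mice came from The Jackson Laboratory. The labels describe different females but give both one donor identifier, so whether the spread between the libraries is that between animals rests on the description alone. Whole tissue was used, and in such samples fewer cells of a type and less RNA per cell cannot be told apart.

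The family is an old one in animals and is related to miR-10. A miRNA guides an Argonaute protein to messenger RNAs by pairing of its seed, bases 2 to 8 from its 5′ end, mostly with sites in 3′ untranslated regions (UTRs), and lowers their translation and stability. In human cells miR-99a and miR-100 are known to repress IGF1R, the receptor for insulin-like growth factors, and MTOR, the kinase that couples nutrients and growth factors to protein synthesis. In human childhood adrenocortical tumours, miR-99a and miR-100 were reported to be low and to regulate IGF and mTOR signalling. No messenger RNA or protein was measured in the series.

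The mature sequences of both arms are shown because they define the family and decide which reads can be told apart. They come from RefSeq (GRCm38.p6, the build also called mm10), where all 6 arms of the 3 members were found, and capitals mark the seed.
miR-99a-5p: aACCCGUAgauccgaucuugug
miR-99b-5p: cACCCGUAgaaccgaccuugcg
miR-100-5p: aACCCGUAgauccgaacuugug
miR-99a-3p: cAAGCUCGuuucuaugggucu
miR-99b-3p: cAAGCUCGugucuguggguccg
miR-100-3p: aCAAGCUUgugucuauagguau
For comparison, the related miR-10 sequences carry a similar seed moved by an inserted base.
miR-10a-5p: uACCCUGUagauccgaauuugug
miR-10b-5p: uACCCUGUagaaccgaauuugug

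The 5p arms of the 3 members had one and the same seed, and it was found in no other of the 1738 mature entries of the RefSeq table. The 3p arms of miR-99a and miR-99b also shared a seed, whereas that of miR-100 differed. Each 5p arm is 22 bases long. With positions counted from the 5′ end and the base of miR-100-5p given first, miR-99a-5p differed from it by A16U alone. By the same count miR-99b-5p differed from miR-100-5p by A1C, U11A, A16C and U21C, so 18 of 22 bases were identical. The longest run shared by the Mir99a and Mir100 hairpins was 16 bases, and the longest run between Mir99b and any other hairpin was 11 bases. None of the 3 hairpins shared a run of 18 bases with a hairpin elsewhere, a property of 1135 of the 2202 genes whose unique counts are uncertain. The separation of Mir99a from Mir100 thus rests on 1 base of the 5p arm. The tables count reads per hairpin, so 5p and 3p arms were not told apart.

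The 3 genes lie on 3 chromosomes, all on the plus strand (mm10). Mir99a lies at chr16:77598936-77599000 in an intron of the noncoding transcript Mir99ahg, and also within an intron of Gm11146 on the opposite strand. Mir99b lies at chr17:17830188-17830257 in an intron of Spaca6, a gene known for sperm and egg fusion. Mir100 lies at chr9:41531425-41531504 in introns of the noncoding transcripts 3110039I08Rik and Gm49317, opposite an exon of Gm48742. Each is followed on the same strand by a let-7 gene and a miR-125 gene. From the end of Mir99b to Mirlet7e there are 94 bases and to Mir125a 554 bases. From Mir99a the distances are 656 bases to Mirlet7c-1 and 47272 bases to Mir125b-2. From Mir100 they are 5211 bases to Mirlet7a-2 and 50421 bases to Mir125b-1.

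Sites that could pair with the shared seed were searched in mouse 3′ UTRs to show what the family's sequence can meet in its best known targets. The longest annotated 3′ UTR of each protein-coding gene in GENCODE M21 was read on its own strand. The letters searched were TACGGGT, which pairs with bases 2 to 8, and ACGGGTA, which pairs with the seed short of its last base and ends in A; TACGGGTA holds both. TACGGGT was in 1.10% of 21024 UTRs and ACGGGTA in 1.04%, and at least one of them was in 1.90%. The corresponding letters for miR-10, ACAGGGT, were in 12.5%. Of 12 genes named elsewhere as reported or candidate targets, 8 held a match. Such matches are a common reason for testing a target, so this count is a description. In each window below, capitals mark the matched letters.
Igf1r, chr7:68232096-68232117, plus strand: gtccagtagatTACGGGTAgtc
Mtor, chr4:148557138-148557159, plus strand: taactgagaaaTACGGGTtttg
Smarca5, chr8:80701009-80701030, minus strand: gttctttaattTACGGGTcttc
Ctdspl, chr9:119043112-119043133, plus strand: cttaaggtaaaTACGGGTAttg
Trib2, chr12:15792407-15792428, minus strand: agtacttcaatTACGGGTcaac
Hs3st2, chr7:121501665-121501686, plus strand: taatctgctgtTACGGGTActt
Ppp3ca, chr3:136936619-136936640, plus strand: tgtatattagtTACGGGTtact
Bmpr2, chr1:59877202-59877223, plus strand: tctgtcttgttaACGGGTAtct

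Igf1r, the growth factor receptor, held its single match far into a 3′ UTR of 7267 bases, from base 5706. Among 189 UTRs within 10% of that length, 6.88% held a match. Mtor, the kinase, held a match from base 289 of a UTR of 823 bases, and 1.45% of 1244 UTRs of like length held one. Hs3st2, a heparan sulfate sulfotransferase, held one from base 640 of 734 bases (1.17% of 1198 UTRs of like length). Bmpr2, a receptor of bone morphogenetic proteins with a UTR of 8529 bases, held only the ACGGGTA form, and 11.9% of 109 UTRs of like length held a match. The same letters were not in the 3′ UTRs read for Rptor, Fkbp5, Insr and Akt1. The 5p seed is the same in the 3 members, so each of these matches is shared by miR-99a, miR-99b and miR-100. A match is a description of letters and was not tested as a site.

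The family was abundant in both libraries, with Mir99a and Mir99b far above Mir100. Reads per gene are given as counts on the annotated strand and as counts per 1000000 reads assigned to miRNA genes (CPM). Those reads numbered 4960537 in replicate 1 and 4506482 in replicate 2. The 3 genes together had 179628 reads in replicate 1 and 178410 in replicate 2. This was 3.62% of the miRNA reads in replicate 1, with a 95% Wilson interval of 3.60 to 3.64. In replicate 2 it was 3.96% (interval 3.94 to 3.98), with a mean of 3.79% ± 0.239 (SD, n = 2). These intervals cover counting error only and take each read as independent. Reads after PCR are not independent molecules, so the intervals can be too narrow even for that error.

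Mir99a had 90461 reads (18236 CPM) in replicate 1 and 96202 reads (21347 CPM) in replicate 2, with a mean of 19792 CPM ± 2200.1 (SD, n = 2). It ranked 15th among all genes in each library. Mir99b had 73779 reads (14873 CPM) in replicate 1 and 65273 reads (14484 CPM) in replicate 2. Its mean of 14679 CPM ± 275 (SD, n = 2) had the smallest relative spread of the family, an SD of 1.87% of the mean against 11.1% for Mir99a and 13.5% for Mir100. Mir100 had 15388 reads (3102 CPM) in replicate 1 and 16935 reads (3758 CPM) in replicate 2, with a mean of 3430.0 CPM ± 464 (SD, n = 2). In order of level, Mir99a came first, Mir99b second and Mir100 last in both libraries, and the ranges of the 3 genes did not overlap. That order was not tested against the spread between animals. Mature lengths on the 5p arm are equal, so levels were compared without a length correction, but small RNA libraries capture different sequences unequally. No read lay on the strand opposite to any of the 3 genes in either library.

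**Figure D1:**
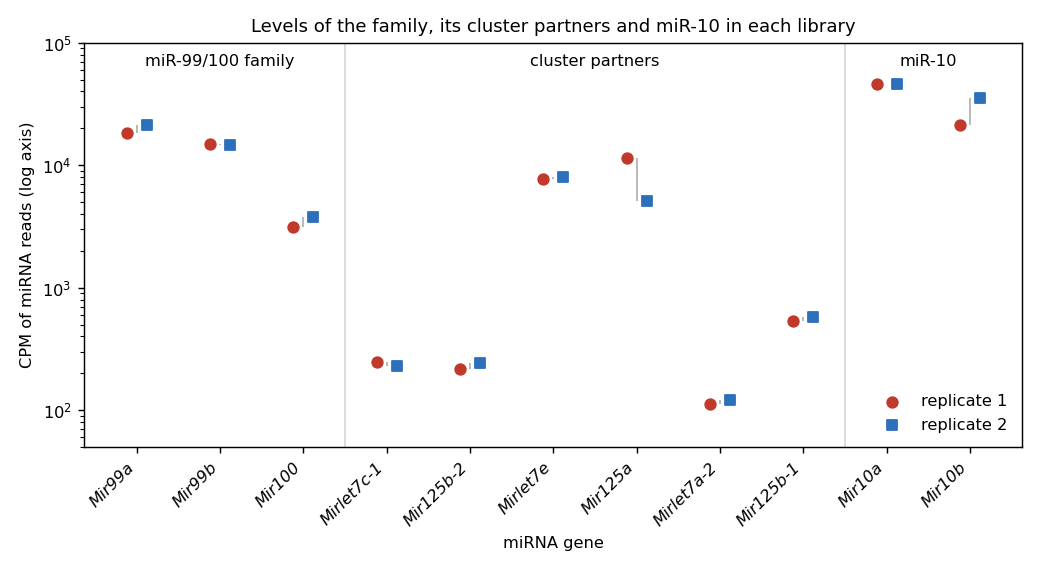
CPM of miRNA reads (log axis) for each gene of the family, its cluster partners and the miR-10 genes, with circles for replicate 1 and squares for replicate 2 set side by side, and a vertical line for the gap between them. Mir99a (18236 CPM in replicate 1, 21347 CPM in replicate 2) and Mir99b (14873 CPM in replicate 1, 14484 CPM in replicate 2) stood above Mir100 in both libraries, and among the cluster partners Mir125a had the widest gap between the libraries.

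Within the family, Mir99a made up about as many reads as the other two genes together. It held 50.4% of the family's reads in replicate 1, with a 95% Wilson interval of 50.1 to 50.6, and 53.9% in replicate 2 (53.7 to 54.2). Mir99b held 41.1% in replicate 1 (40.8 to 41.3) and 36.6% in replicate 2 (36.4 to 36.8). Mir100 held 8.57% in replicate 1 (8.44 to 8.70) and 9.49% in replicate 2 (9.36 to 9.63). The share of Mir99b was therefore higher in replicate 1 and those of Mir99a and Mir100 were higher in replicate 2, each by more than counting error.

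Ratios of a pair of genes within a library need no scaling between libraries, and their log2 differences are given as replicate 1 minus replicate 2. For each Mir99b read there were 1.23 Mir99a reads in replicate 1 and 1.47 in replicate 2, a log2 difference of -0.27 (95% interval for counting error -0.29 to -0.25). Mir99a and Mir100, from separate chromosomes, kept nearly one ratio, with 5.88 Mir99a reads per Mir100 read in replicate 1 and 5.68 in replicate 2. The log2 difference was 0.049 (0.015 to 0.084). Mir99b to Mir100 gave 4.79 in replicate 1 and 3.85 in replicate 2, a log2 difference of 0.31 (0.28 to 0.35). Of these 3 differences the widest was 1.24-fold, and they were not tested against the spread between animals.

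Set against each other, the libraries differed little at the family. Log2 ratios are of replicate 1 over replicate 2 after TMM scaling, and each gene's division of reads between the libraries was tested by a two-sided exact binomial test. P-values were adjusted over all 377 genes (Benjamini-Hochberg), and an adjusted p under 0.05 was a call. It compares these 2 libraries, with counting error as the only error. By this test 68.2% of the 377 genes were called and 35.5% were called higher in replicate 2. All 3 members were called lower in replicate 1, the direction of those 35.5%. The log2 ratio was -0.36 for Mir99a (95% exact interval -0.37 to -0.35), -0.093 for Mir99b (-0.11 to -0.078, adjusted p = 1.76e-32) and -0.41 for Mir100 (-0.44 to -0.38, adjusted p = 1.89e-141). The median of the 377 genes was -0.043 and their median absolute ratio was 0.45, and the absolute ratio of each member was smaller than that.

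The scaling matters for Mir99b. When libraries were scaled to total miRNA reads instead, the median of all genes moved by 0.13, and the ratio of Mir99b became 0.038, called higher in replicate 1. With TMM over the 377 tested genes alone it was -0.013 with no call (adjusted p = 0.131). Distances from the median of the tested genes do not change with a scaling factor. By this measure Mir99a lay at -0.31, Mir99b at -0.049 and Mir100 at -0.36. A smaller departure from that median was seen at 38.7% of the tested genes for Mir99a, at 7.43% for Mir99b and at 43.8% for Mir100.

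With edgeR's exact test, whose dispersion comes from the same pair of libraries, none of the 3 members passed, against 1.86% of the 377 genes. The unadjusted p was 0.692 for Mir99a, 0.918 for Mir99b and 0.653 for Mir100, and the adjusted p was 1 for each. By that test 7 genes passed in all and 24 had an unadjusted p under 0.05.

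**Figure D2:**
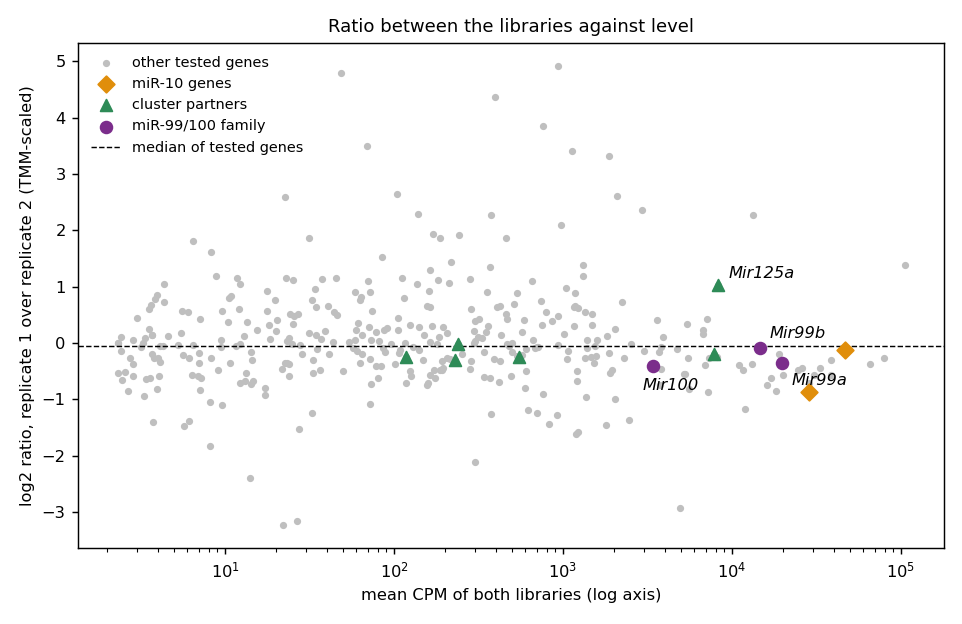
Log2 ratio of replicate 1 over replicate 2 (TMM-scaled) against mean CPM (log axis) for the 377 tested genes, with the family, its cluster partners and the miR-10 genes marked and the median of -0.043 as a dashed line. The 3 members lay below the median, while Mir125a lay at 1.03.

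**Figure D3:**
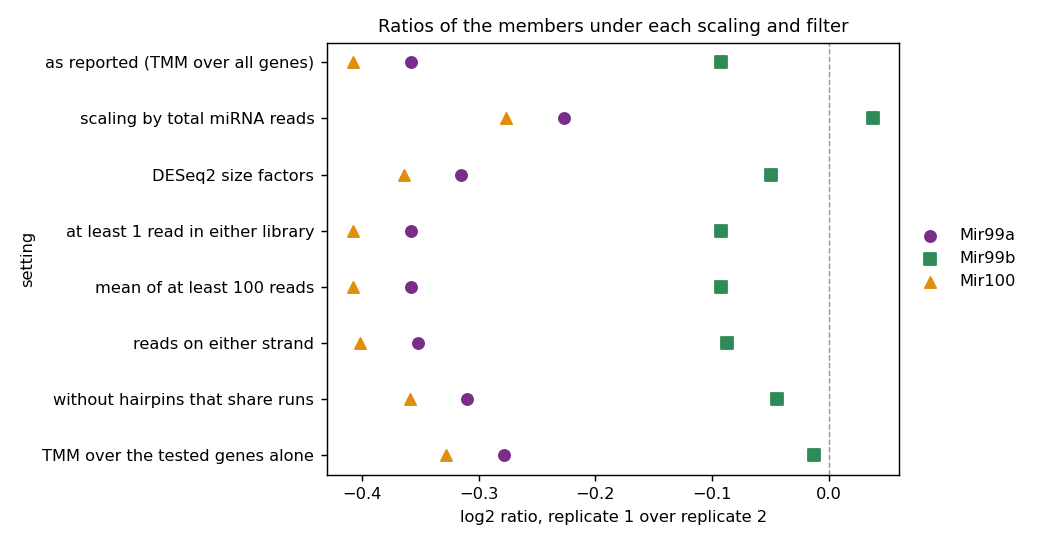
Log2 ratio of replicate 1 over replicate 2 for Mir99a (circles), Mir99b (squares) and Mir100 (triangles) under each scaling and filter. Mir99a and Mir100 stayed below 0 in every setting drawn, whereas Mir99b crossed to 0.038 under total miRNA reads.

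Genes of one cluster differed in their ratios between the libraries, most of all next to Mir99b. Of the 6 partners, 1 was called higher in replicate 1 and 4 were called lower there, against 32.6% and 35.5% of the 377 genes, and 1 (Mirlet7c-1) had no call. Their median log2 ratio was -0.21, with -0.043 over all tested genes. Only uniquely mapped reads were counted, and 4 of the 6 partners share a run of 18 bases with another hairpin. The whole of let-7a-5p, let-7c-5p and miR-125b-5p was found in 2 hairpins each, so reads of just that arm have no unique place. This touches Mirlet7a-2, Mirlet7c-1, Mir125b-1 and Mir125b-2. The Mir99b cluster is the one whose 3 genes all share no such run.

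In the Mir99b cluster, Mirlet7e, a let-7 gene of the family that restrains growth and stem cell genes, had 38013 reads (7663 CPM) in replicate 1 and 35873 reads (7960 CPM) in replicate 2. Its log2 ratio of -0.19 (95% exact interval -0.21 to -0.17) was a call towards replicate 2. Mir125a, the mammalian relative of the developmental miRNA lin-4 of worms, had 56727 reads (11436 CPM) in replicate 1 and 23091 reads (5124 CPM) in replicate 2. It was 2.04-fold higher in replicate 1 (log2 ratio 1.03, 1.01 to 1.05), with an unadjusted p of 0.261 in edgeR's exact test. For each Mir99b read there were 0.769 Mir125a reads in replicate 1 and 0.354 in replicate 2, a log2 difference of 1.12 (1.09 to 1.15). The same count for Mirlet7e was 0.515 in replicate 1 and 0.550 in replicate 2, a log2 difference of -0.093 (-0.12 to -0.067). Mir99b and Mirlet7e thus kept their ratio within 1.07-fold, and Mir125a departed from both of its neighbours.

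In the Mir99a cluster the partners had few unique reads. Mirlet7c-1 had 1225 reads (247 CPM) in replicate 1 and 1032 reads (229 CPM) in replicate 2, with no call (log2 ratio -0.022, adjusted p = 0.791). Mir125b-2 had 1076 reads (217 CPM) in replicate 1 and 1098 reads (244 CPM) in replicate 2 (log2 ratio -0.30, adjusted p = 3.08e-06). Relative to Mir99a, the log2 difference between the libraries was 0.34 (0.22 to 0.46) for Mirlet7c-1 and 0.060 (-0.062 to 0.18) for Mir125b-2. The interval of the second holds 0.

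In the Mir100 cluster Mirlet7a-2 had 563 reads (113 CPM) in replicate 1 and 551 reads (122 CPM) in replicate 2. Mir125b-1 had 2636 reads (531 CPM) in replicate 1 and 2580 reads (573 CPM) in replicate 2. Both were called lower in replicate 1, each with a log2 ratio of -0.24, but Mirlet7a-2 had no call under scaling to total miRNA reads (adjusted p = 0.275) or with TMM over the tested genes alone (adjusted p = 0.0961). Relative to Mir100 the log2 difference was 0.17 for each (-0.0031 to 0.34 for Mirlet7a-2 and 0.085 to 0.25 for Mir125b-1).

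**Figure D4:**
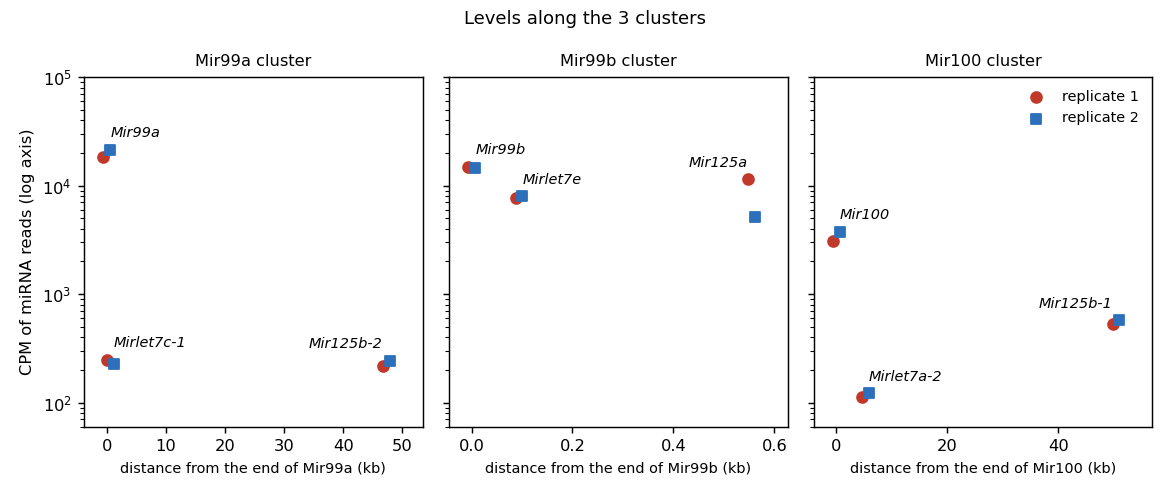
CPM of miRNA reads (log axis) against the distance in kb from the end of each family member to the start of its partners, with one panel per cluster, and circles for replicate 1 and squares for replicate 2 moved slightly apart sideways to be seen. In the compact Mir99b cluster the libraries nearly coincide at Mir99b and Mirlet7e and part at Mir125a, while the partners of Mir99a and Mir100 reach at most 573 CPM.

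**Figure D5:**
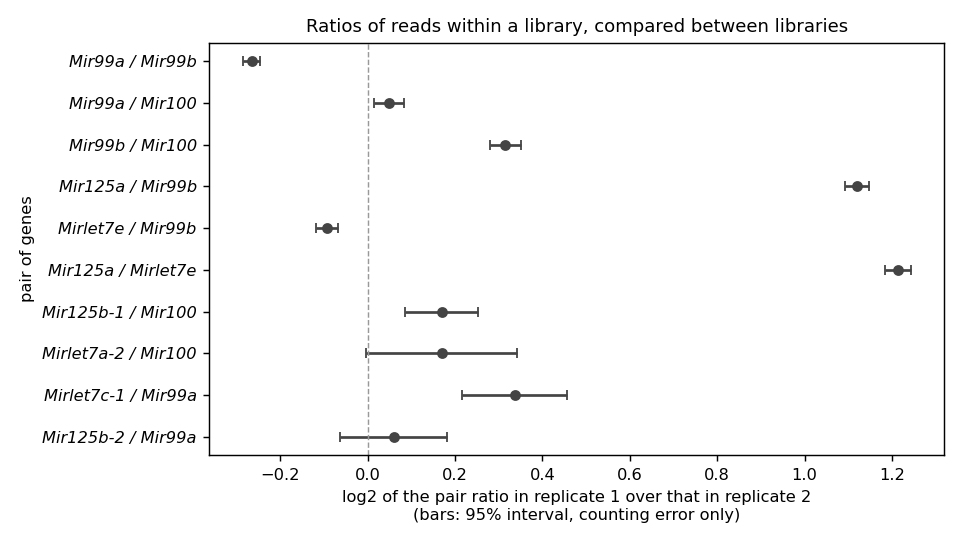
Log2 of the ratio of reads of a pair of genes in replicate 1 over the same ratio in replicate 2, with 95% intervals for counting error as bars. Mir99a to Mir100 lay near 0 (0.049), whereas Mir125a to Mir99b lay at 1.12.

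The miR-10 genes, related in sequence to the family, were more abundant. Mir10a and Mir10b, which lie in Hox clusters, together held 6.78% of the miRNA reads in replicate 1 and 8.20% in replicate 2, which was 1.87 times the reads of the miR-99/100 family in replicate 1 and 2.07 times in replicate 2. Mir10a had a log2 ratio of -0.13 (0.0021 with no call under total miRNA reads) and Mir10b of -0.87. Thus the relation of Mir99a to Mir10b changed more between the libraries (log2 difference of Mir10b to Mir99a -0.51, -0.53 to -0.49) than that to Mir10a (0.23, 0.21 to 0.25).

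Other miRNA genes reported elsewhere to act on Igf1r or Mtor, mostly in human cells, did not share one direction. Of 14 such genes, 12 were tested, of which 7 were called higher in replicate 1, 4 were called lower there and 1 (Mir7-2) had no call. The shares over all tested genes were 32.6% and 35.5%. Their median log2 ratio was 0.33, against -0.043 over all tested genes. Among those reported for Igf1r, Mir139, which lies within Pde2a, stood at 14194 CPM in replicate 1 and at 19981 CPM in replicate 2, a log2 ratio of -0.62. Mir145a, a smooth muscle miRNA, stood at 664 CPM in replicate 1 against 1805 CPM in replicate 2 (log2 ratio -1.57). Mir7b, of neuroendocrine cells, had a log2 ratio of -0.46, and Mir223, of myeloid cells, of -0.58. Mir182 (1.44), Mir497 (1.14) and Mir7-1 (0.20) were higher in replicate 1, and Mir7-2 without a call also had a ratio of 0.20. Among those reported for Mtor, Mir101b (0.89), Mir101a (0.45), Mir144 (1.87) and Mir199a-2 (0.51) were higher in replicate 1. Runs shared with another hairpin were found for 7 of the 14 genes, whose counts are uncertain. When hairpins with such runs were left out, 3 genes of the list were called higher in replicate 1 and 4 lower. Over all 281 genes tested in that setting, 97 were called higher in replicate 1 and 98 lower. Among the genes of this list Mir139 had the highest mean level, 17087 CPM, below that of Mir99a and above that of Mir99b. Next came Mir7b at 3787 CPM, below both Mir99a and Mir99b but above Mir100 (3430 CPM).

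Outside the lists of cluster partners, miR-10 genes and genes reported for Igf1r or Mtor, the tested genes closest to each member in level and ratio were found by distance in the plane of mean log2 CPM and log2 ratio, over 2 libraries. The nearest to Mir99a were Mirlet7b (17900.3 CPM in replicate 1, 20639.8 CPM in replicate 2) and Mir21a (18470.2 CPM in replicate 1, 19306 CPM in replicate 2). For Mir99b they were Mir379 (12087 CPM in replicate 1, 14217 CPM in replicate 2) and again Mir21a, at larger distances of 0.317 and 0.378. For Mir100 they were Mir674 (3209 CPM in replicate 1, 3929.7 CPM in replicate 2) and Mir409 (3651 CPM in replicate 1, 3726 CPM in replicate 2). The hairpin of Mirlet7b shares a run with another hairpin.

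The libraries also differed in miRNAs of other cell types. The 5 epithelial genes of the miR-200 family summed to 4224 CPM in replicate 1 against 192 CPM in replicate 2. The endothelial gene Mir126a stood at 156832 CPM in replicate 1 against 54709 CPM in replicate 2. The sums of the 3 erythroid genes (1059 CPM in replicate 1, 287 CPM in replicate 2) and of the 3 kidney genes (375 CPM in replicate 1, 145 CPM in replicate 2) were also higher in replicate 1, although the erythroid gene Mir486 was called higher in replicate 2. The sum of the 5 striated muscle genes (1253 CPM in replicate 1, 8686 CPM in replicate 2) was higher in replicate 2. Nearly all of it was Mir206 (1239 CPM in replicate 1, 8627 CPM in replicate 2), and Mir1b, too low to be tested, had 18 reads in replicate 1 and 4 in replicate 2. The liver gene Mir122 (1449 CPM in replicate 1, 2638 CPM in replicate 2) and each of the 3 leukocyte genes (summed to 1151 CPM in replicate 1 and 1475 CPM in replicate 2) were higher in replicate 2. No gene of these lists was at 0 in either library. The lists held no miRNA that defines the adrenal cortex. The neuroendocrine pair Mir375 and Mir7b, taken for the medulla, summed to 39741 CPM in replicate 1 against 45238 CPM in replicate 2. Mir7-1 and Mir7-2, outside that pair, went the other way with a log2 ratio of 0.20 each. Mir7-1 (389 CPM in replicate 1, 309 CPM in replicate 2) was called higher in replicate 1. Mir7-2 (87.7 CPM in replicate 1, 69.9 CPM in replicate 2) had no call. The hairpin of each shares a run with another hairpin. Of all 377 tested genes, 32.6% were called higher in replicate 1 and 35.5% higher in replicate 2. Their median absolute log2 ratio was 0.45. The median log2 ratio was -0.49 for the leukocyte genes and -0.38 for the neuroendocrine pair, so both were of about that common size. The part of these gaps in the ratios of Mir99a, Mir99b, Mir100 and Mir125a was not tested.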

How the data were processed

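MicroRNA-seq was read in 2 libraries of 1 group. The authors deposited whole-number read counts per miRNA gene, not normalized. Reads were placed on mm10 and counted over GENCODE M21, per the file headers. Neither the aligner nor the counter is given in the sources used here. Every table has 3 count columns (either strand, annotated strand, opposite strand, an assignment read from the values) and 4 leading rows that name no gene, kept out of library sizes. These rows held 57.6% of 11704395 reads in replicate 1 and 60.1% of 11288855 reads in replicate 2, and reads mapped to several places were 25.9% of all reads in replicate 1 and 27.8% in replicate 2. All 2202 identifiers matched GENCODE M21. From the annotated-strand counts, TMM factors over all genes (edgeR 4.0.16, 1.05 for replicate 1, 0.956 for replicate 2) and exact binomial tests were computed in R 4.3.3. CPM, Wilson intervals and pair ratios with Woolf intervals were computed in Python 3.11.15. Genes needed 10 reads in both libraries. With 1 group and 1 library on each side of the comparison, a quasi-likelihood test has no residual degrees of freedom. Counts for replicate 1 over replicate 2 (377 genes) were also simulated as Poisson draws, with counting error as the only error. On these the binomial test called 88.0% of genes changed by 1 and 99.0% of those changed by 2 on the log2 scale. It called 1.69% of unchanged genes. The draws hold no other spread between libraries, so 1.69% is not the rate of false calls in the real pair. Alternatives were total reads, DESeq2 1.42.0 size factors, other read minimums, either-strand reads, hairpins without shared runs, TMM over tested genes (chosen after seeing the data) and edgeR's exact test. Named genes were the members, their cluster partners, miR-10, a list of miRNAs reported to act on Igf1r or Mtor, and the 2 nearest genes per member outside these lists. Members and lists were chosen with earlier results of these data known.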

Additional observations from a re-analysis of the deposited data

How the results depend on the processing

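The denominator set the levels. With either-strand reads the means were 23469.8 CPM for Mir99a, 17497 CPM for Mir99b, 4064 CPM for Mir100 and 4.50% for the family. Without hairpins that share runs they were 29324, 21665 and 5086 CPM and 5.61%, and with all deposited reads as the total they were 8125, 6043 and 1407 CPM and 1.56%. These shifts follow from the smaller or larger totals. Leaving out one replicate gave 18236 to 21347 CPM for Mir99a, 14484 to 14873 CPM for Mir99b, 3102 to 3758 CPM for Mir100, 3.62% to 3.96% for the family, and family shares of 50.4% to 53.9%, 36.6% to 41.1% and 8.57% to 9.49% for Mir99a, Mir99b and Mir100. The log2 ratio of Mir99b turned to 0.038 under total miRNA reads and was -0.013 with no call under TMM over the tested genes. Under edgeR's exact test the ratios of Mir99a (-0.36), Mir99b (-0.093) and Mir100 (-0.41) had no call, called genes numbered 7 in place of 257 of 377 (24 at an unadjusted p under 0.05), and 0 cluster partners and 0 genes of the Igf1r and Mtor list were called, because that test adds the spread of the pair (coefficient of variation 0.433). Without hairpins that share runs, 2 cluster partners and 7 genes of that list were called, since only 2 and 7 remained to test. Of those partners 1 was higher and 1 lower in replicate 1, in place of 1 and 4. Of the list, 3 were higher and 4 lower there, in place of 7 and 4. Over all 281 genes tested in that setting, 195 were called, 97 higher and 98 lower in replicate 1. The calls of Mir99a and Mir100 kept their direction under the 7 other settings tried, with ratios from -0.36 to -0.23 and from -0.41 to -0.28. No paired analysis was possible because the 2 libraries are replicates of 1 group. Depth did not limit the members, each with at least 15388 reads per library, but 2 libraries do limit every statement about animals.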

Other observations

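The either-strand column lists Mirlet7e, the nearest neighbour of Mir99b, at 0 in both libraries, although the annotated strand held 38013 reads in replicate 1 and 35873 in replicate 2. An annotated miRNA gene, Gm25927, lies opposite to it. Mirlet7e was not the only such gene. A far larger gap was seen at Mir126a, with 777971 annotated-strand reads against 11 in the either-strand column in replicate 1. In replicate 2 it had 246547 against 5. The row of ambiguous reads in that column held 1018277 reads in replicate 1 and 497237 in replicate 2, while it was 0 in the stranded columns. For the members themselves both columns were identical.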
